A study of Mus musculus with 12 samples.

Results

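The histone deacetylases are enzymes that remove acetyl groups from the lysines of histones and other proteins. They were chosen by name: the rows of the deposited count table for Hdac1, Hdac2, Hdac3, Hdac4, Hdac5, Hdac6, Hdac7, Hdac8, Hdac9 and Hdac11, which are 10 of its 41388 genes. The rule used names and no measured value. RNA sequencing of the medial prefrontal cortex (PFC) was available for 12 libraries of male Swiss Webster mice aged 10 weeks, 4 in each of 3 groups. Conventionally raised mice (CON) were bred with microbes, germ-free mice (GF) were kept in isolators without them, and exGF mice were raised germ-free and moved on postnatal day 21 to the animal unit of the CON mice, where microbes colonized them. All groups were fed the same autoclaved diet. RNA of 2 to 3 animals was pooled for each library, and replicates are therefore pools. GF and CON mice came from separate breeding pairs, so that colonization and colony cannot be told apart in the comparisons with CON, whereas exGF mice came from the isolators and differ from GF mice in housing unit as well as in microbes.

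Histone acetylation loosens chromatin, and deacetylases reverse it, mostly as the catalytic part of large repressor complexes. Class I (Hdac1, Hdac2, Hdac3, Hdac8) sits in the nucleus, class IIa (Hdac4, Hdac5, Hdac7, Hdac9) shuttles between nucleus and cytoplasm and binds MEF2 transcription factors, the class IIb enzyme Hdac6 acts on cytoplasmic tubulin, and Hdac11 alone makes up class IV. Butyrate, a short-chain fatty acid that gut bacteria make from fibre, inhibits enzymes of this family, which is why their transcripts are of interest in mice without microbes. Butyrate, deacetylase protein, enzyme activity and histone acetylation were not measured in these libraries.

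CON libraries held 22757169 to 29134760 counts on genes, GF libraries 13280926 to 23465074 and exGF libraries 22702599 to 28615407. The 4 columns called GFR1 to GFR4 were taken as the exGF libraries because every other column is named for a CON or a GF sample, and these names are used here since their numbers were not matched to single samples. Markers of neurons (7 genes), neocortex (5), astrocytes (6), oligodendrocytes (7), oligodendrocyte precursors (4), microglia (5) and endothelium (7) were all above 0, and so were 5 striatal genes, whose summed level was 105 to 139 CPM (counts scaled to the size of the library) in 10 libraries and stood apart in CON replicate 2 (216) and GFR4 (225). In bulk tissue, fewer cells of a type and less RNA per cell cannot be told apart. Every deacetylase was well counted, with at least 158 and at most 7111 read pairs in any library, and all 10 passed the filter on low counts in each comparison.

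The members differed far more from each other than between groups. Compared per exon length, as CPM divided by the kilobases of merged exon (RPKM), Hdac11 had the highest level, 61.3 ± 3.65 (SD, n = 12 libraries), and Hdac8 the lowest, 2.22 ± 0.212, a 27.7-fold difference. Hdac11 stood above 95.2% of 14060 genes with at least 10 counts in every library, and Hdac8 above 28.8%. Between these ends lay Hdac3 (22.1 ± 1.40 RPKM) and Hdac2 (21.3 ± 1.82), the class I enzymes of the NCoR complex and of the Sin3, NuRD and CoREST complexes.

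Next in level per length came Hdac5 at 16.6 ± 1.96 RPKM, Hdac6 at 9.86 ± 0.941 and Hdac1 at 5.34 ± 0.387. The lowest 4 were Hdac7 at 3.34 ± 0.732, Hdac4 at 3.10 ± 0.282, Hdac9 at 2.88 ± 0.443 and Hdac8. Several neighbours in this order were not separated by the spread between libraries. Hdac3 was above Hdac2 in only 7 of 12 libraries, Hdac7 above Hdac4 in 8 and Hdac4 above Hdac9 in 10, whereas each of the other neighbours held its place in all 12. The order by group means was the same in CON and exGF, and GF differed only in that Hdac2 stood before Hdac3. It depends on the merged exon lengths, which were longest for Hdac4 (15813 bases) and Hdac9 (14665). In mean CPM Hdac4 (49.0) and Hdac9 (42.3) stood above Hdac7 (22.5) and Hdac1 (18.4). Lengths were not reduced for the parts of Hdac1 and Hdac4 shared with other genes, where pairs can go uncounted, so their RPKM may be too low.

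**Figure D1:**
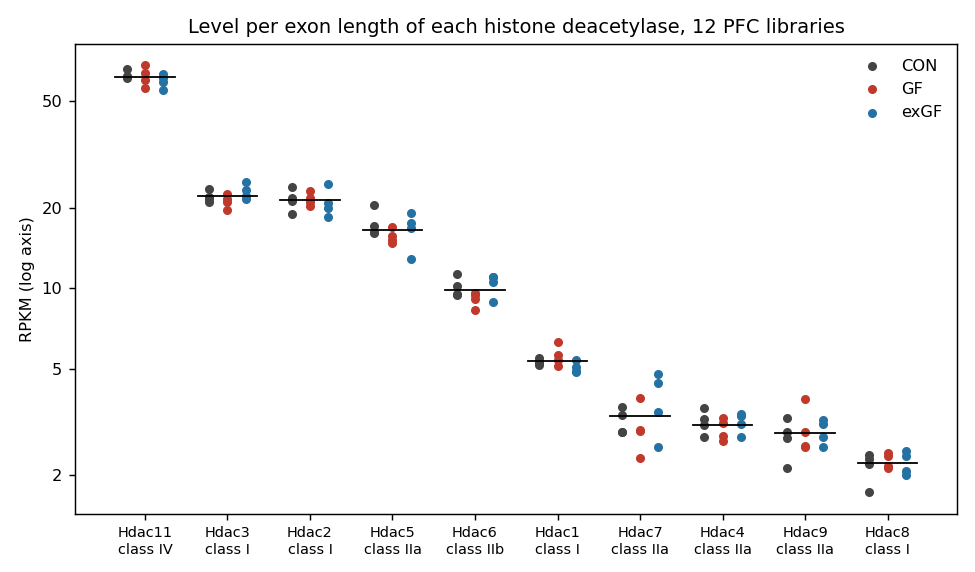
Level of each histone deacetylase per exon length (RPKM, log axis) in the 4 CON, 4 GF and 4 exGF libraries, with the mean of all 12 as a line and genes ordered by it. Hdac11 lies apart at the top, and the 3 groups lie on each other for every gene.

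By class, CON libraries held 62.6 ± 2.26 RPKM of class IV transcript (SD, n = 4), 50.9 ± 2.23 of class I, 26.6 ± 2.0 of class IIa and 10.1 ± 0.834 of class IIb. These sums cover the 10 members, and Hdac6 is the only class IIb enzyme among them, so they are not totals of whole classes. All members together summed to 150 ± 1.92 RPKM in CON libraries, 146 ± 6.14 in GF libraries and 148 ± 5.54 in exGF libraries, and these sums overlapped. Class I made up 33.9% ± 1.27 of the sum in CON, 34.6% ± 1.28 in GF and 34.7% ± 1.52 in exGF, and class IIa 17.7% ± 1.30, 16.8% ± 0.686 and 17.9% ± 2.39. The shares of class I and class IIa were therefore nearly the same in the 3 groups, within the spread between pools. Shares of single members were not computed.

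RefSeq windows (GRCm38.p6) of 250 bases before to 50 bases after a transcription start were used for 8 of the members, 12 windows in all. None was used for Hdac1 or Hdac3, which does not show that these genes lack one. The windows of the member with the highest level, of the member with the lowest, and of Hdac9, which holds no CpG in 1 of its windows, are shown with each CpG dinucleotide in capitals (positions chr6:91156565-91156864 on the plus strand, chrX:102505109-102505408 on the minus strand and chr12:34917046-34917345 on the minus strand).
Hdac11: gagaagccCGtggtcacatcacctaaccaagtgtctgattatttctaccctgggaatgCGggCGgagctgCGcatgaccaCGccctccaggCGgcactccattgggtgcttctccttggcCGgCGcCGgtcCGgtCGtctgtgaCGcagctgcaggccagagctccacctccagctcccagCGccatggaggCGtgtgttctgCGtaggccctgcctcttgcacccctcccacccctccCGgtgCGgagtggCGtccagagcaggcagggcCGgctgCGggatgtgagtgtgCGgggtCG
Hdac8: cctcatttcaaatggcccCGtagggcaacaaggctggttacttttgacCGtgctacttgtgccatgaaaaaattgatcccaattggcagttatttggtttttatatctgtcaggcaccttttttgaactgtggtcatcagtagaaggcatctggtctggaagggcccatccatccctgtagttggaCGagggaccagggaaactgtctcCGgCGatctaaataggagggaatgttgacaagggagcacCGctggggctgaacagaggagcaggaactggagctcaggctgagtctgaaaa
Hdac9: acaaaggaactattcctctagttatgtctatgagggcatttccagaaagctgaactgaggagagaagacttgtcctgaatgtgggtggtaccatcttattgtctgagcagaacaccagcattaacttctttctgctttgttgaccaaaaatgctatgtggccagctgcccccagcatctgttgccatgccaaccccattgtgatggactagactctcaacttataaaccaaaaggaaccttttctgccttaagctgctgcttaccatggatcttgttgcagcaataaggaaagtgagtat

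The Hdac11 window held 22 CpG, more than 76.9% of the 32851 windows compared, the Hdac8 window 6 and this Hdac9 window 0. Among the other members with a window, Hdac2 had 36 CpG, Hdac4 32, Hdac6 20 and Hdac5 18, the second Hdac9 window 3, and the 4 Hdac7 windows 5 to 35. CpG content did not order the levels, since Hdac4 combined 32 CpG with 3.10 RPKM. Because class IIa enzymes repress genes bound by MEF2, the windows were searched on both strands for the MEF2 consensus. Of the members searched, which leave out Hdac1 and Hdac3, only Hdac5 held a match. Of the 32851 windows compared, 3.19% hold at least 1 match at any position. The Hdac5 match lay at 20 bases before the transcription start (CTATTTTTAG). It is shown in capitals within chr11:102230153-102230222 on the minus strand.
Hdac5: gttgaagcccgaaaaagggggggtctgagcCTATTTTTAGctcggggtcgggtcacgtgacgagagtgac

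The first comparison asked whether the absence of microbes throughout life went with other deacetylase transcript levels. Genes were tested with the quasi-likelihood method of edgeR and called at a Benjamini-Hochberg adjusted p under 0.1. Between CON and GF 0 of 10 members were called, where 0.251% of 15542 tested genes were. At an unadjusted p under 0.05 there were 0 members too, against 8.69% of all tested genes. DESeq2 (2 groups) and limma-voom called 0 members, where they called 204 of 24399 and 47 of 15542 genes. In GF 4 members were higher and 6 lower, by log2 fold changes from -0.16 to 0.10 (median -0.04, against 0.01 for all tested genes). GF and CON libraries overlapped for all 10 members, while the groups did not overlap for 5.11% of genes with at least 10 counts in 4 libraries (2.5% with all GF libraries higher and 2.62% with all lower).

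Hdac5, a class IIa enzyme that leaves the nucleus when neurons are active, had the largest difference, with 143, 179, 142 and 150 CPM in CON replicates 1 to 4 and 138, 130, 149 and 132 CPM in GF replicates 1 to 4. CON replicate 2 was the highest of these, and GF replicate 3 lay within the CON range while the other 3 GF libraries lay below it. Hdac5 was highest of all 12 libraries in CON replicate 2 and GFR4 (167 CPM), the libraries with the highest striatal markers, whose part in its level was not tested. The log2 fold change was -0.16 (SE 0.09, 95% interval -0.36 to 0.04, Benjamini-Hochberg adjusted p = 0.652, edgeR quasi-likelihood). Without CON replicate 2 it was -0.08 (SE 0.08), and the difference of Hdac6 was then larger (-0.15).

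Hdac6, the tubulin deacetylase, differed by nearly as much. Its levels were 55.0, 59.3, 55.6 and 65.5 CPM in CON and 54.9, 48.1, 55.9 and 52.8 CPM in GF. GF replicate 2 was the lowest, and GF replicate 3 stood within the CON range. The log2 fold change was -0.15 (SE 0.09, 95% interval -0.34 to 0.04, Benjamini-Hochberg adjusted p = 0.654, edgeR quasi-likelihood).

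The class I enzymes differed by log2 0.08 (Hdac1), 0.01 (Hdac2), -0.06 (Hdac3) and 0.07 (Hdac8), with 95% intervals that together reached from -0.23 to 0.35. Hdac2, the class I enzyme of mature neurons that has been linked to memory, had 95.8 ± 8.85 CPM in CON and 96.2 ± 5.29 in GF. The remaining class IIa enzymes were lower by 0.09 (Hdac4 and Hdac7, log2 -0.09 each) or higher by 0.10 (Hdac9). Hdac9 in GF ranged from 37.6 to 56.4 CPM, with GF replicate 2 the highest.

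Hdac11 is found in neurons and oligodendrocytes, and it was read beside oligodendrocyte genes because those were higher in GF. It had 254, 237, 239 and 234 CPM in CON and 262, 216, 244 and 231 CPM in GF. The GF libraries spread on both sides of the CON libraries, and the log2 fold change was -0.02 (SE 0.08, 95% interval -0.18 to 0.15). All 7 oligodendrocyte markers were higher in GF, and 5 of them were called in the same test. Their summed level was 2123 to 2611 CPM in CON and 3294 to 5553 CPM in GF. Of these markers Mog, a protein of the outer myelin surface, rose by log2 0.82 (SE 0.14, Benjamini-Hochberg adjusted p = 0.0342, edgeR quasi-likelihood).

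**Figure D2:**
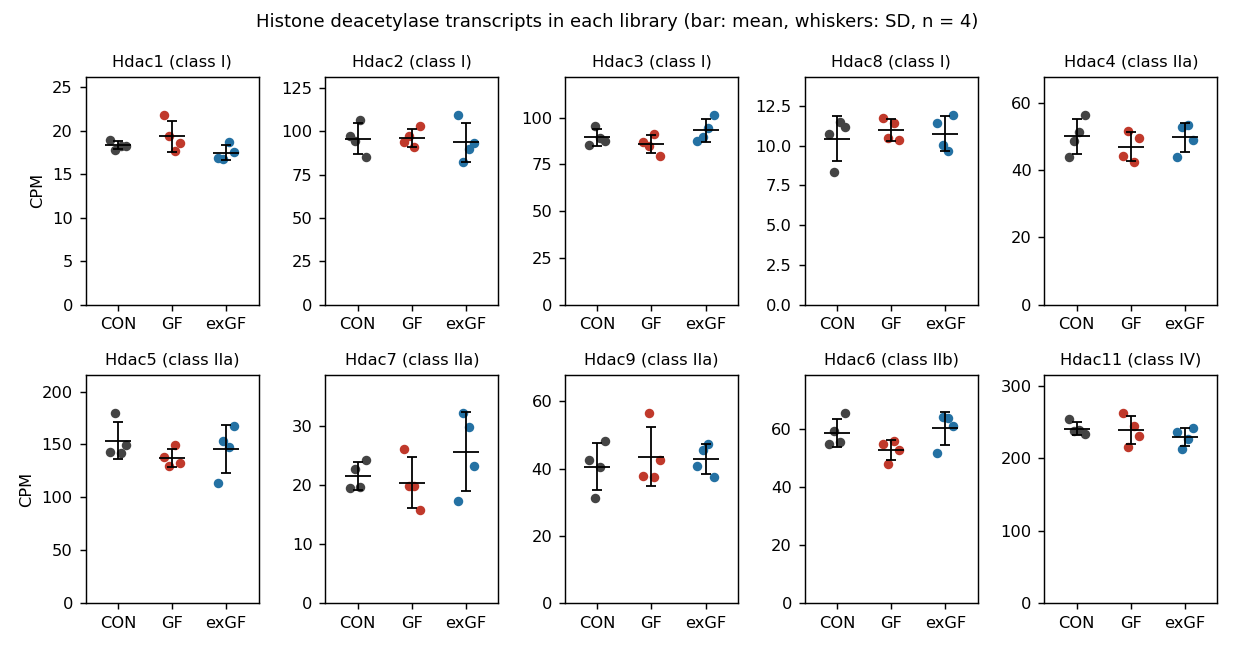
Level (CPM) of each histone deacetylase in every library, with the mean and SD of 4 libraries per group and axes that start at 0. For each gene the points of the 3 groups overlap, and Hdac7 and Hdac5 spread most among the exGF libraries.

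The second comparison, CON against exGF, asked about mice that met microbes only after weaning. Again edgeR called 0 of 10 members, where 0.0696% of 15813 genes were, and 0 had an unadjusted p under 0.05 (5.33% of all tested genes). DESeq2 (2 groups) and limma-voom called 0 members, where they called 60 of 25050 and 12 of 15813 genes. In exGF 5 members were higher and 5 lower, by log2 -0.08 to 0.24 (median 0.01, against -0.01 for all tested genes). Groups overlapped for all 10 members. They did not for 3.31% of genes with at least 10 counts in 4 libraries (1.77% higher and 1.54% lower in exGF). Apart from Hdac7, the members differed by log2 -0.08 to 0.07.

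Among the class I enzymes, Hdac3 had 85.5, 95.5, 89.1 and 87.2 CPM in CON and 87.5, 89.8, 94.4 and 101 CPM in GFR1 to GFR4. GFR4 lay above the CON libraries and the other 3 exGF libraries within their range. GFR4 and CON replicate 2, the libraries with the highest striatal markers, had the highest Hdac3 of all 12, and the part of those markers was not tested. The log2 fold change was 0.05 (SE 0.08, 95% interval -0.13 to 0.24), with 0.09 when CON replicate 2 was left out and 0.03 when GFR4 was. Hdac8, an X-linked enzyme that deacetylates cohesin, was the least counted member, at 10.4 ± 1.42 CPM in CON libraries against 10.8 ± 1.07 in exGF libraries. The difference of log2 0.04 had a wider 95% interval of -0.24 to 0.31. Hdac9, which recruits corepressors to MEF2 target genes, had 31.1 to 48.1 CPM in CON and 37.5 to 47.2 in exGF, so that its exGF libraries all lay within the CON range.

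Hdac7, a class IIa enzyme known from endothelium and thymocytes, had 19.6, 22.8, 19.6 and 24.3 CPM in CON, 26.2, 19.9, 19.8 and 15.7 CPM in GF, and 17.3, 32.2, 29.8 and 23.3 CPM in GFR1 to GFR4. GFR2 and GFR3 lay above every CON and GF library, while GFR1 lay below every CON library. Relative to CON the log2 fold change in exGF was 0.24 (SE 0.17, 95% interval -0.12 to 0.61, Benjamini-Hochberg adjusted p = 0.963, edgeR quasi-likelihood). Leaving out 1 library at a time gave 0.12 (without GFR2) to 0.40 (without GFR1), and the fit without GFR1 had the lowest Benjamini-Hochberg adjusted p of these, 0.534 (edgeR quasi-likelihood).

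Endothelial markers were read beside Hdac7. The summed level of the 7 markers was 224 to 252 CPM in CON, 207 to 236 in GF and 232 to 273 in exGF, with the highest value in GFR3 (273) and the next in GFR2 (259), the same 2 libraries in which Hdac7 was highest. Other libraries went the other way: CON replicate 1 had the highest sum of the CON group (252) with the lowest Hdac7, CON replicate 4 the lowest sum (224) with the highest Hdac7, and GF replicate 1 had 26.2 CPM of Hdac7 at a sum of 236. Of the 7 markers edgeR called 0 in each comparison, and 2 of them were lower in GF than in CON and 2 higher in exGF than in GF at an unadjusted p under 0.05. Their part in the Hdac7 level was not tested.

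The third comparison, GF against exGF, asked whether colonization from weaning went with a difference from mice that stayed germ-free. With edgeR 0 of 10 members were called, and 0% of 15569 tested genes were. At an unadjusted p under 0.05 there were 0 members against 6.65% of all tested genes. DESeq2 (2 groups) and limma-voom called 0 members, where they called 21 of 24657 and 0 of 15569 genes. Members differed by log2 -0.15 to 0.34 in exGF relative to GF (median 0.03, against 0.00 for all tested genes), 5 of them higher and 5 lower. The groups overlapped for all 10 members. They did not for 3.35% of genes with at least 10 counts in 4 libraries (1.8% with all exGF libraries higher and 1.55% with all lower).

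Hdac7 differed most, by log2 0.34 (SE 0.19, 95% interval -0.07 to 0.74), and Hdac6 by 0.19 (SE 0.09, 95% interval -0.01 to 0.39). Hdac6 had 51.8, 64.1, 64.0 and 61.3 CPM in GFR1 to GFR4, so that 3 of the 4 exGF libraries lay above every GF library and GFR1 lay within the GF range. Hdac1 stood at the other end with -0.15 (SE 0.10, 95% interval -0.36 to 0.07). Its level was 18.3 ± 0.461 CPM in CON libraries, 19.4 ± 1.77 in GF libraries and 17.5 ± 0.874 in exGF libraries.

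GFR1 was the lowest exGF library for several class II enzymes, although Dixon's test at the 95% level found 0 outliers over the 30 sets of 4 libraries, 1 per member and group. It had 113 CPM of Hdac5 where the others had 148 to 167, 44.0 of Hdac4 against 49.1 to 53.4, and its class IIa sum of 21.03 RPKM was the lowest of all 12 libraries. For the class I gene Hdac2 it had the highest level of any library, 109 CPM. Neuronal markers were also highest in GFR1, at a summed 8804 CPM against 7400 to 7665 in the other exGF libraries, and 17.7% of its read pairs aligned to several places against 13.0% to 15.7%. The part of these values in the deacetylase levels was not tested.

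Leaving out 1 library at a time, the log2 fold change in exGF relative to GF ran from 0.21 (without GFR2) to 0.48 (without GFR1) for Hdac7, from 0.15 (without GF replicate 2) to 0.26 (without GFR1) for Hdac6 and from 0.01 (without GFR4) to 0.19 (without GFR1) for Hdac5. Leaving out the lowest library raises these values by construction. Without GFR1 these 3 members had an unadjusted p under 0.05, where 13.7% of 15726 tested genes did, and 0 members were called, with 0.248 as the lowest Benjamini-Hochberg adjusted p (edgeR quasi-likelihood).

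**Figure D3:**
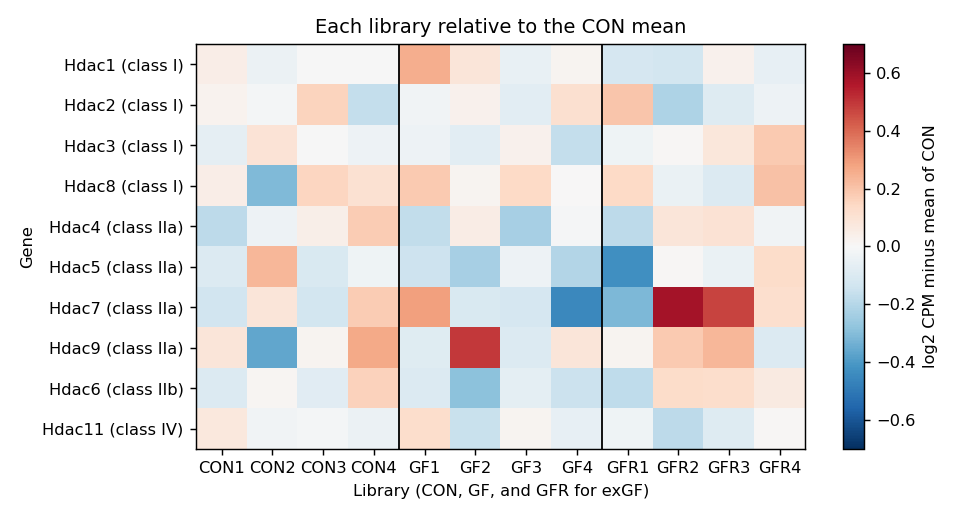
Each library's log2 CPM of each histone deacetylase minus the mean of the CON libraries, as colour from -0.7 (blue) to 0.7 (red), with lines between the groups. GFR1 is low for Hdac5 and Hdac7, GFR2 and GFR3 are high for Hdac7, and all 4 GF libraries are below the CON mean for Hdac5 and Hdac6, whose groups still overlap.

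Over the 30 tests of a member, the 95% intervals all held 0. The lowest bound was a fold of 0.764 (Hdac7, GF relative to CON) and the highest a fold of 1.67 (Hdac7, exGF relative to GF), and 28 of the 30 intervals lay wholly within 1.5-fold either way. The spread between pools, given as edgeR's biological coefficient of variation, ran from 0.0878 for Hdac3 to 0.185 for Hdac7. In the fit of CON and GF 95.3% of tested genes varied more than Hdac3, 93.4% more than Hdac11 and 41.4% more than Hdac7.

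**Figure D4:**
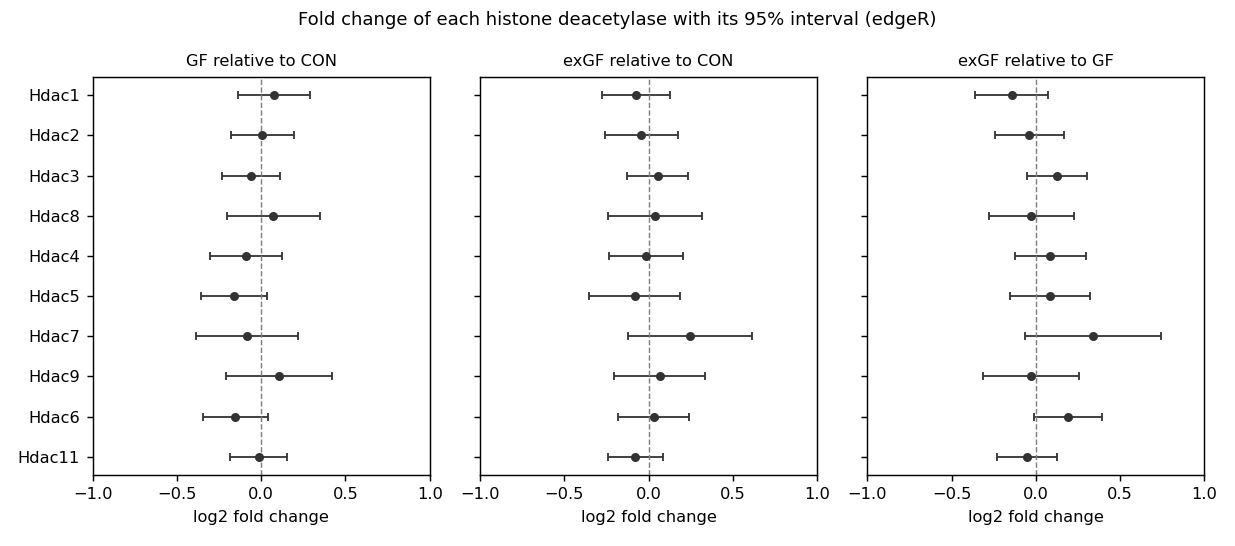
Log2 fold change of each histone deacetylase with its 95% interval from edgeR in the 3 pairwise comparisons (n = 4 libraries a group). Every interval crosses 0, and the intervals of Hdac7 are the widest in both comparisons with exGF.

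Deacetylases work through partner proteins, and lists of these were described in the same fits. The subunits of the complexes that hold Hdac1, Hdac2 and Hdac3 had 0 genes called by edgeR in each comparison (15 of Sin3, 10 of NuRD, 7 of CoREST and 5 of NCoR/SMRT, all tested). At an unadjusted p under 0.05 there was 1 Sin3 and 1 NuRD gene between CON and GF, 2 Sin3 genes between CON and exGF and 1 CoREST gene between GF and exGF, where 8.69%, 5.33% and 6.65% of all tested genes passed. The median log2 fold change in GF relative to CON was 0.06 for Sin3, 0.00 for NuRD, -0.07 for CoREST and -0.02 for NCoR/SMRT, against 0.01 for all tested genes. In exGF relative to GF it was -0.10 for Sin3 (12 of 15 genes lower), 0.00 for NuRD, 0.12 for CoREST (6 of 7 higher) and 0.04 for NCoR/SMRT, and in exGF relative to CON -0.07, 0.01, 0.04 and 0.01. Chd3, a helicase of NuRD, differed by -0.26 in GF relative to CON (SE 0.08, Benjamini-Hochberg adjusted p = 0.336, edgeR quasi-likelihood).

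The Sin3 subunit Sap130 had 60.0, 55.8, 64.5 and 64.8 CPM in CON, 71.3, 74.2, 77.95 and 82.1 CPM in GF, and 76.2, 79.8, 82.6 and 84.1 CPM in exGF. All 8 GF and exGF libraries lay above every CON library, the same CON libraries in both comparisons. The log2 fold change was 0.32 (SE 0.08) in GF and 0.39 (SE 0.08) in exGF, with Benjamini-Hochberg adjusted p of 0.218 and 0.282 (edgeR quasi-likelihood). With DESeq2 fitted to the 2 groups, Sap130 was called in both, at adjusted p of 0.0521 and 0.00708, and with DESeq2 fitted to all 12 libraries at 0.0198 and 0.00125. In the edgeR and limma-voom alternatives run, its adjusted p lay above 0.1 in both comparisons. Among genes with at least 10 counts in 4 libraries, all GF libraries were higher for 2.5% and all exGF libraries for 1.77%.

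Class IIa enzymes leave the nucleus when kinases phosphorylate them and Ywha proteins then bind them. Of the 13 kinases tested, Sik1, which is itself induced by neuronal activity, was called higher in GF and the other 12 were not called. It had 11.9, 10.1, 9.35 and 13.3 CPM in CON and 18.2, 15.8, 20.5 and 24.4 CPM in GF, so that every GF library lay above every CON library. It rose in GF by log2 0.82 (SE 0.15, Benjamini-Hochberg adjusted p = 0.0426, edgeR quasi-likelihood). The call was lost without CON replicate 2 or 3, without GF replicate 3 or 4 (adjusted p of 0.116 to 0.154), and when edgeR was fitted to all 12 libraries at once (adjusted p = 0.142). In exGF Sik1 was at 16.3 ± 5.01 CPM, lowest in GFR3 (10.7) and highest in GFR4 (22.9). Relative to CON it was higher there too, by log2 0.55 (SE 0.20), but not called (Benjamini-Hochberg adjusted p = 0.755, edgeR quasi-likelihood). In that comparison 3 of the 13 kinases, Sik1 among them, were higher at an unadjusted p under 0.05, against 5.33% of all tested genes in either direction.

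Of the MEF2 factors and Ywha proteins, 9 of 10 were tested and edgeR called 0 in each comparison, with Mef2b left out at 2 counts or fewer in every library. For all 9 the level in GF exceeded that in CON, with log2 fold changes of 0.04 to 0.21 (median 0.11), and 2 of them, Mef2a (0.21, SE 0.09) and Ywhah (0.16, SE 0.07), had an unadjusted p under 0.05. In GF the 7 neuronal markers were all higher too (median 0.14), and their part in these values was not tested. In exGF relative to CON 5 of the 9 were higher and 4 lower (median 0.03), and relative to GF 1 was higher and 8 were lower (median -0.08).

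The enzymes that add acetyl groups, those that remove them by another chemistry, and the proteins that read them had 0 genes called by edgeR in each comparison (10 histone acetyltransferases, 7 sirtuins and 7 bromodomain readers). The medians in GF relative to CON were 0.01, 0.04 and 0.00 on the log2 scale. Kat2b, an acetyltransferase, differed by 0.34 (SE 0.13) and Sirt2, a tubulin deacetylase of oligodendrocytes, by 0.23 (SE 0.10), each with an unadjusted p under 0.05. Their Benjamini-Hochberg adjusted p were 0.430 and 0.518 (edgeR quasi-likelihood). In exGF the medians of the lists, in the same order, were 0.10, 0.03 and 0.04 relative to CON, and 0.05, -0.01 and 0.03 relative to GF.

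**Figure D5:**
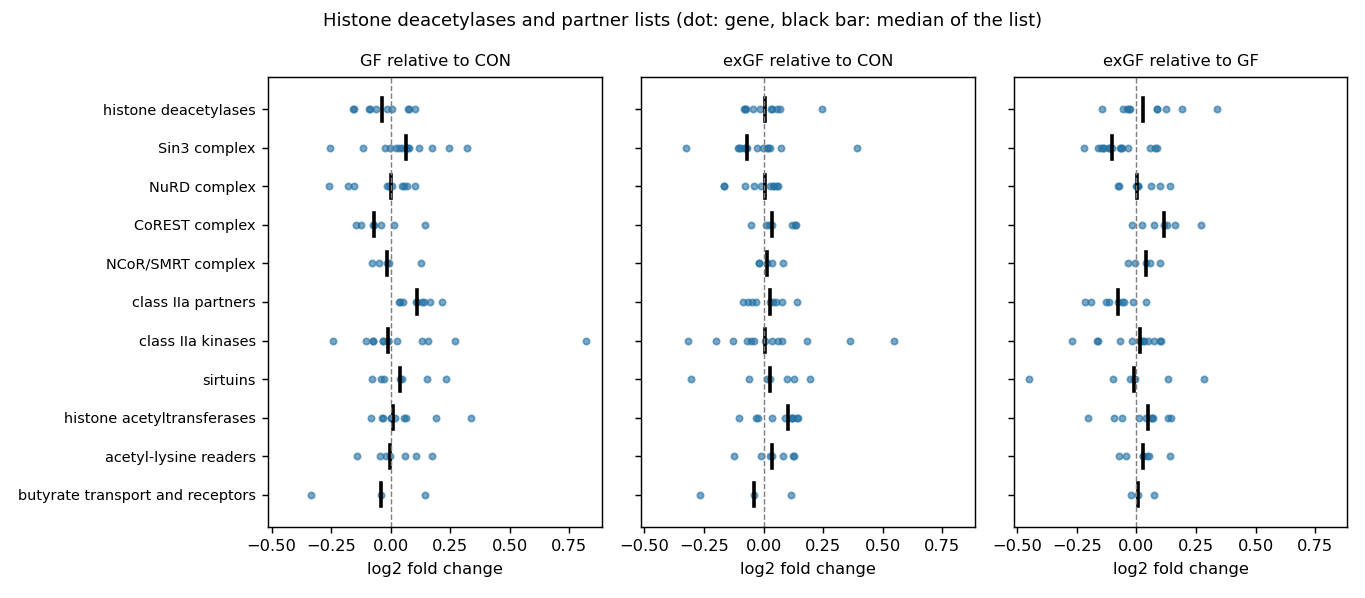
Log2 fold change of each tested gene of the histone deacetylases and of 10 partner lists in the 3 pairwise comparisons, with the median of each list as a black bar. The medians lie between -0.10 (Sin3) and 0.12 (CoREST), both in exGF relative to GF. The dot farthest to the right is Sik1 among the class IIa kinases in GF relative to CON.

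Counts of Hdac1, Hdac4 and, to a smaller extent, Hdac11 are less certain than the others. The transcripts of Hdac1 (ENSMUSG00000028800, chromosome 4 from 129516104 to 129542713) shared 40.02% of their 31-base words with other genes, and 34.8% with the processed pseudogene Gm10093. Pairs aligned to several places were not counted for any gene. Gm10093 itself had 20 to 90 counts per library, and 1.56 to 2.13 CPM in CON, 1.49 to 3.09 in GF and 2.01 to 3.07 in exGF.

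Hdac4 (ENSMUSG00000026313, chromosome 1 from 91928779 to 92195699) shared 22.4% of its exon bases with the noncoding gene Gm26720 on the opposite strand, which had 0 counts. Counting ignored strand, so pairs within the shared bases belonged to neither gene. Hdac11 (ENSMUSG00000034245, chromosome 6 from 91156665 to 91174692) shared 2.49% of its exon bases with the antisense gene Gm14573, which had 11 counts over all libraries. It shared 15.4% with Gm44002 on the opposite strand, which was not among the counted genes and so took no pairs from Hdac11. Of the 31-base words of Hdac11 16.3% were found in other genes, and 21.9% of those of Hdac4. Words were searched on either strand, so that antisense genes at the same place can be among these. For Hdac2, Hdac3 and Hdac8, 0% of the 31-base words were found in other genes, and for Hdac5, Hdac6, Hdac7 and Hdac9 0.0858% to 1.11%.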

How the data were processed

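The members follow from their names, but the family and the partner lists were taken up with earlier results of these data known. Per the submitters' processing notes and methods, Trimmomatic 0.32 trimmed the read pairs, STAR aligned them to GRCm38.p3 and HTSeq 0.6.0 counted uniquely aligned pairs on Ensembl genes without regard to strand. The authors deposited raw counts per gene without normalization. Pairs given to no gene were left out: outside genes 4.57% to 7.31% of a library, on several genes 1.10% to 1.32%, aligned to several places 13.0% to 19.2%.

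Analyses ran in R 4.3.3 with DESeq2 1.42.0, edgeR 4.0.16 and limma 3.58.1. Each pair of groups was filtered (filterByExpr), normalized (TMM) and tested over the whole table with edgeR (glmQLFit and glmQLFTest) and called at a Benjamini-Hochberg adjusted p under 0.1, the study's threshold. SE and 95% intervals came from the same fit. CPM and RPKM used TMM over 12 libraries and merged exon lengths of GENCODE M21 (GRCm38), in which 40254 of 41388 genes had a name. All 10 members were named in the text, and partner genes where called or, at most 2 a list, at the smallest unadjusted p under 0.05. Nothing says which animals were pooled, so p-values measure the spread between pools. Alternatives were other normalizations, no filter, DESeq2, limma-voom, 1 fit of 12 libraries, the replicate block, a threshold of 0.05 and each library left out.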

Additional observations from a re-analysis of the deposited data

How the results depend on the processing

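The number of deacetylases called was 0 under each of 17 alternatives for CON against GF and 16 for either comparison with exGF, including each library left out in turn. The threshold of 0.05, counted among these, could give no other number, since 0 members were called at 0.1 in the same fit. The lowest adjusted p of a member in any alternative was 0.248 (edgeR quasi-likelihood, Benjamini-Hochberg, Hdac7, GF against exGF without GFR1). Of 460 alternative fold changes of members, 434 kept their direction and 26 did not. In every setting the median log2 fold change of all genes lay within 0.0219 of 0. Between CON and GF, Hdac2 turned from 0.0073 to -0.0049 with upper-quartile normalization and to -0.011 without the filter on low counts. The other turns came with 1 library left out, and the cause was not tested beyond fewer samples. The log2 fold changes then ran, for CON against GF, from -0.046 to 0.062 (Hdac2), -0.23 to 0.020 (Hdac7), -0.020 to 0.12 (Hdac8), -0.048 to 0.20 (Hdac9) and -0.074 to 0.029 (Hdac11), for CON against exGF, from -0.11 to 0.025 (Hdac2), -0.061 to 0.054 (Hdac4), -0.14 to 0.032 (Hdac5), -0.051 to 0.087 (Hdac8) and -0.036 to 0.16 (Hdac9), and for GF against exGF, from -0.12 to 0.017 (Hdac2), -0.082 to 0.020 (Hdac8) and -0.097 to 0.12 (Hdac9). With the replicate number as a block in CON against GF, 0 members were called. Libraries of the same number correlated at -0.0851 to 0.0478 in their deviations, so the number was not read as a pairing, and exGF columns carry no sample number. GF had the lowest depth.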

Other observations

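Genes by which tissue takes up or senses butyrate were also measured. The monocarboxylate carriers Slc16a1 (36.0 ± 5.97 CPM in CON, 39.8 ± 1.48 in GF, 39.2 ± 3.25 in exGF; SD, n = 4), Slc16a7 (13.4 ± 2.66, 13.0 ± 2.38 and 13.1 ± 2.14) and Slc16a3 (3.06 ± 0.565, 2.43 ± 0.258 and 2.54 ± 0.489) passed the filter on low counts, and edgeR called 0 of the 3 in each comparison, with 0 at an unadjusted p under 0.05. Slc16a3 had the largest difference, log2 -0.33 (SE 0.20) in GF and -0.27 (SE 0.20) in exGF relative to CON. The receptors of short-chain fatty acids Ffar2 and Ffar3, the butyrate receptor Hcar2 and the carrier Slc5a8 had at most 3, 2, 3 and 5 counts in any library and were not tested.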
